A study of Saccharomyces cerevisiae with 18 samples.

Results

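Disome and monosome footprints of the yeast strain ncs2Δelp6Δ were set against each other gene by gene, to describe where pairs of packed ribosomes stood when the wobble uridine of certain tRNAs was unmodified. The members were the genes listed in both count tables, and the values were 2 disome and 3 monosome libraries of this strain, each scaled to its own library total. Of 6159 genes listed in either table, 5693 were in both, and 5326 of these had enough counts to be tested. Footprints were the mRNA fragments left after RNase I digestion of a lysate, taken from the monosome or the disome fraction of a sucrose gradient and sequenced.

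A ribosome that waits too long on a codon, at a stop codon or on a nascent peptide can be reached by the ribosome behind it, and the pair then shields one long stretch of mRNA, the disome footprint. Disomes form in all growing cells, for instance where ribosomes pause before termination, and only some of them are recognised as collisions by the ubiquitin ligase Hel2. Elp6 belongs to the Elongator complex and Ncs2 to the thiolation pathway. Together these build the side chains of the wobble uridine in the tRNAs that read AAA, CAA and GAA codons. Elongator also acts on the wobble uridine of other tRNAs. In yeast without both, the paper reports AAA and CAA as the most slowed codons. It also reports slow decoding of some G-ending codons, and of GAA in certain codon pairs.

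The strain ncs2Δelp6Δ is haploid MATa with his3Δ1, leu2Δ0 and ura3Δ0, and carries ncs2Δ::HIS3MX and elp6Δ::URA3. Wild type is BY4741, which is MATa with his3Δ1, leu2Δ0, ura3Δ0 and met15Δ0. The labels list met15Δ0 for the wild type only. For comparison, values are also given from hel2Δ, which carries hel2Δ::LEU2 in the same background, and from the triple deletion ncs2Δelp6Δhel2Δ, which carries all of these deletions, each with 2 monosome and 2 disome libraries. All cultures grew in the rich medium YPD at 30 °C with shaking and were taken in mid-exponential phase. The study calls the replicates biological, and the labels do not say how many clones or cultures stand behind them, so the p-values measure the spread between these libraries.

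The disome libraries held 845707 and 1121126 counts, and the monosome libraries held 24884873, 17782300 and 13791038. The disome pair of ncs2Δelp6Δ was much closer than other pairs. Over 4078 genes its chi-square per degree of freedom was 1.12 (p = 1.59e-07, chi-square test of the counts), where 1 is pure counting error, while the other 3 strains' disome pairs gave between 2.13 and 7.83 and the monosome pairs of ncs2Δelp6Δ between 8.18 and 15.1. The pair still differed beyond counting error and was kept as 2 libraries. With the 2 summed into 1 library, 1060 genes were called higher and 1729 lower, against 1139 and 1833 with the pair. The deleted genes were nearly empty, with ELP6 at 0 counts in both disome libraries and NCS2 at 2 and 4 counts, and both were left out of the groups of genes described here.

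Relative to the monosome footprints, the disome footprints of ncs2Δelp6Δ were spread unevenly over the transcripts. A gene was called when the adjusted p-value of edgeR's quasi-likelihood test was under 0.05, and the log2 difference is the fitted log2 of the disome over the monosome CPM (counts scaled to a library total of 1000000). By this rule 1139 of 5326 genes were higher among disomes (21.4%) and 1833 were lower (34.4%). Of these, 364 were higher by over 2-fold (6.83%) and 875 were lower by over 2-fold (16.4%). The median log2 difference was -0.21, the interquartile range was -0.81 to 0.34, and the 5th and 95th percentiles were -1.86 and 1.27. Among the strongly lower genes, 20 had 0 counts in both disome libraries, so their fitted values are no measure of size.

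The zero of this scale is set by the library totals, and it decides how many genes fall on each side. Of the called genes, 38.3% were higher with library totals, 48.0% with the trimmed mean of M-values (TMM; 1393 higher and 1509 lower) and 52.5% with DESeq2's size factors (1461 higher and 1324 lower). TMM moved the median of all genes by 0.14 and DESeq2 by 0.17 on the log2 scale. Directions of groups of genes are therefore given relative to the median of all tested genes. The amount of disomes per cell was not measured, since each library is scaled to its own total.

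**Figure D1:**
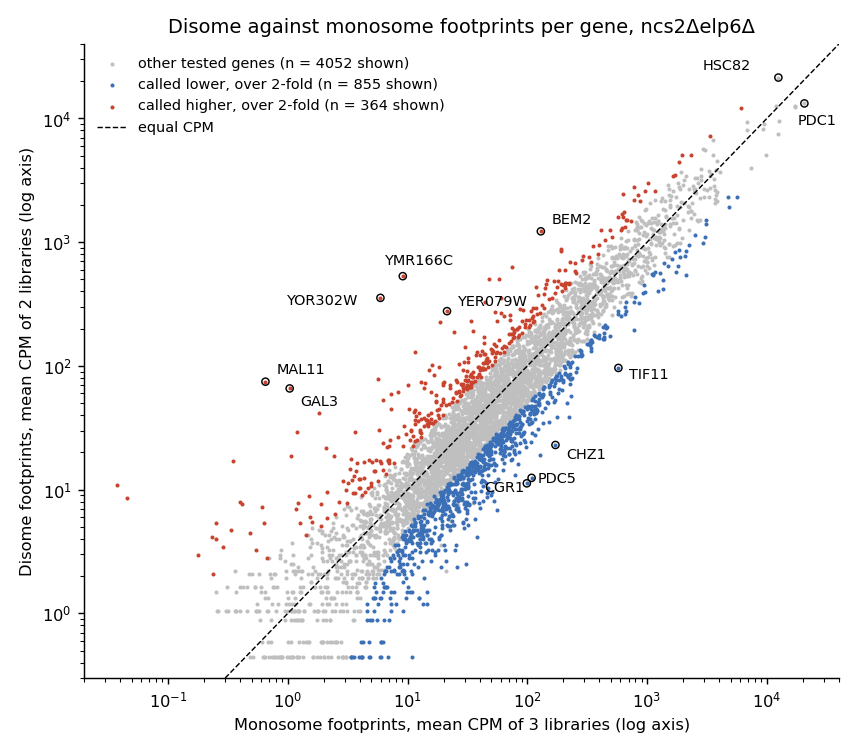
Each point is 1 tested gene of ncs2Δelp6Δ, with the mean monosome CPM of 3 libraries on the x axis and the mean disome CPM of 2 libraries on the y axis, both logarithmic. The 364 strongly higher genes lie above the dashed line of equal CPM and the strongly lower genes below it, and 55 genes with 0 disome counts cannot be drawn.

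A small set of transcripts held far more disome than monosome footprints. The 12 with the largest differences, among called genes of at least 20 CPM on average over both library types whose libraries did not overlap, were MAL11, GAL3, YMR166C, YOR302W, AI1, HXT5, YER079W, UBC5, XBP1, YKR011C, BEM2 and YAH1. They ranged from 115-fold down to 8.76-fold higher. MAL11, GAL3, YMR166C, YOR302W, AI1, HXT5, XBP1 and UBC5 had mean monosome levels under 20 CPM and reached the minimum only through their disome libraries. Their place in this list thus rests in part on the disome levels that it ranks. Several are genes with few monosome footprints in glucose medium, whereas BEM2 and YAH1 had more.

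MAL11 encodes a maltose transporter that glucose represses (chromosome VII, 1073963 to 1075813, coordinates from the RefSeq table of R64, the assembly also called sacCer3). It had disome levels of 52.0 and 97.2 CPM and monosome levels of 0.68, 0.62 and 0.65 CPM. The log2 difference was 6.85 ± 0.29 (adjusted p = 3.78e-20, edgeR), where ± gives an SE calculated back from the F statistic of the test. Both disome libraries stood far above the 3 monosome libraries, at 44 and 109 disome counts. MAL11 passed the filter on low counts through its disome libraries. It belongs to a family of similar transporters, and the authors counted only reads that mapped to a single place, so its value is uncertain where the copies share sequence.

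GAL3, the galactose sensor that switches on the galactose genes, lies on chromosome IV (463434 to 464996). It had disome levels of 70.9 and 60.7 CPM against monosome levels of 0.76, 0.90 and 1.45 CPM. The log2 difference was 6.04 ± 0.28 (adjusted p = 2.93e-19, edgeR). The disome counts were 60 and 68, and as for MAL11 few single-ribosome footprints lay on the transcript.

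YMR166C encodes a protein of the mitochondrial carrier family (chromosome XIII, 593367 to 594473). Its disome levels were 526 and 537 CPM and its monosome levels 9.76, 8.49 and 9.14 CPM, a log2 difference of 5.86 ± 0.11 (adjusted p = 4.46e-31, edgeR). With 445 and 602 disome counts, this was the best measured of the 4 largest differences.

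YOR302W is the short upstream reading frame of CPA1 on chromosome XV (882765 to 882842), whose product, the arginine attenuator peptide, halts its own ribosome when arginine is plentiful. Disome levels were 363 and 347 CPM and monosome levels were 7.68, 6.52 and 3.63 CPM. The log2 difference was 5.84 ± 0.18 (adjusted p = 3.20e-13, edgeR). The frame is only 78 bases long, and its disome counts reached 307 and 389.

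The remaining 8 differed by between 23.4-fold and 8.76-fold. AI1 is a reading frame within an intron of the mitochondrial COX1 gene, with disome levels of 47.3 and 36.6 CPM against 1.08, 2.64 and 1.74 CPM in monosomes. HXT5, a hexose transporter made in slow growth, had 72.1 and 83.8 CPM against 4.34, 6.97 and 5.73 CPM, and XBP1, a stress-induced transcriptional repressor, had 125 and 134 CPM against 9.56, 12.6 and 12.3 CPM. UBC5, a ubiquitin-conjugating enzyme with a near-identical copy in UBC4, had 229 and 220 CPM against 19.2, 20.3 and 16.5 CPM. Every disome library of these genes lay above every monosome library, but HXT5 and UBC5 have close paralogs and are uncertain for the reason given for MAL11.

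BEM2, which acts in bud emergence, carried the most disomes of the 12. Its disome levels were 1187 and 1262 CPM and its monosome levels 138, 130 and 122 CPM, a log2 difference of 3.24 ± 0.08 (adjusted p = 8.90e-28, edgeR). YAH1, the mitochondrial ferredoxin needed to build iron-sulfur clusters, had 524 and 485 CPM against 52.3, 52.9 and 68.2 CPM (log2 difference 3.13 ± 0.11). The uncharacterised genes YKR011C (480 and 522 CPM against 48.9, 50.2 and 46.0 CPM) and YER079W (274 and 280 CPM against 21.4, 20.6 and 22.0 CPM) were 10.4-fold and 13.0-fold higher.

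At the other end stood transcripts with ample monosome footprints and few disomes. The 12 with the largest differences in this direction were PDC5, YDL085C-A, CGR1, MRPL37, CHZ1, ELF1, RAM2, MRPL51, TIF11, YFH1, YLR035C-A and SAM35, between 9.28-fold and 5.65-fold lower. Except for PDC5 and YLR035C-A, their coding lengths were between 207 and 990 bases, and several encode small proteins of gene expression and of mitochondria. Apart from TIF11 and YLR035C-A, they had at most 25 counts in each disome library, so their sizes are less precise.

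PDC5, a minor pyruvate decarboxylase, had disome levels of 15.4 and 7.14 CPM (13 and 8 counts) and monosome levels of 119, 89.0 and 89.1 CPM, a log2 difference of -3.21 ± 0.29 (adjusted p = 2.14e-09, edgeR). It is a close paralog of PDC1, and the uncertainty of multigene families holds for it. TIF11, the initiation factor eIF1A, was the best measured of the 12, with disome levels of 91.0 and 102 CPM (77 and 114 counts) against 596, 565 and 568 CPM in monosomes. Its log2 difference was -2.57 ± 0.10 (adjusted p = 9.25e-21, edgeR). Both disome libraries lay far below all 3 monosome libraries.

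CHZ1, a chaperone of the histone variant H2A.Z, had 23.6 and 22.3 CPM in disomes and 166, 169 and 180 CPM in monosomes (log2 difference -2.91 ± 0.17). ELF1, a transcription elongation factor, had 17.7 and 20.5 CPM against 130, 125 and 130 CPM. CGR1, which acts in processing of ribosomal RNA, had 10.6 and 14.3 CPM against 96.2, 101 and 129 CPM. All 3 are short nuclear proteins with disome libraries well below the monosome libraries.

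MRPL37 and MRPL51, subunits of the mitochondrial ribosome, had disome levels of 4.73 and 8.92 CPM and of 8.28 and 8.03 CPM. Their monosome levels were 53.8, 57.7 and 57.6 CPM and 51.9, 57.3 and 48.3 CPM. YFH1, the yeast frataxin, had 8.28 and 17.8 CPM against 79.3, 81.4 and 76.5 CPM. SAM35, which helps insert barrel proteins into the mitochondrial outer membrane, had 7.09 and 7.14 CPM against 39.0, 39.5 and 42.4 CPM. RAM2, a subunit shared by 2 protein prenyltransferases, had 7.09 and 4.46 CPM against 35.4, 37.6 and 37.9 CPM. The disome and monosome libraries of these 5 genes did not overlap. YDL085C-A, a small uncharacterised frame, had 4.73 and 3.57 CPM (4 counts in each library) against 35.2, 34.7 and 44.3 CPM. YLR035C-A, a reading frame of a retrotransposon and so one of many similar copies, had 41.4 and 36.6 CPM against 226, 238 and 198 CPM, and is uncertain for that reason.

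**Figure D2:**
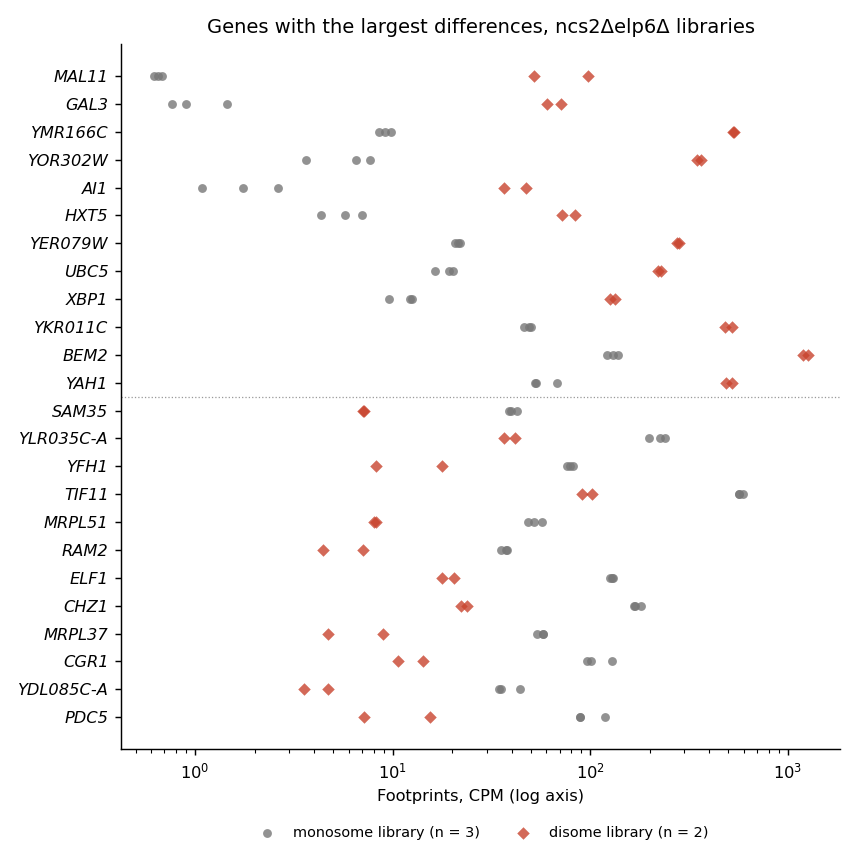
CPM of each ncs2Δelp6Δ library on a logarithmic axis, with red diamonds for the 2 disome and grey circles for the 3 monosome libraries, for the 12 genes with the largest difference upward (top) and downward (bottom). In each gene the diamonds and circles do not overlap, from MAL11 at the top (52.0 and 97.2 against 0.62 to 0.68 CPM) to PDC5 at the bottom.

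These patterns were also present in strains whose libraries played no part in choosing the genes. In wild type 11 of the 12 highest genes had a positive log2 ratio of disome to monosome CPM (after adding 1 CPM) in both same-numbered pairs of libraries, the exception being AI1, and in hel2Δ and in ncs2Δelp6Δhel2Δ all 12 did. All 12 of the lowest genes were negative in both pairs of each of these strains. Over the 364 strongly higher genes the same held for 81.9% in wild type, 68.4% in hel2Δ and 79.1% in the triple deletion, against 28.9%, 21.5% and 25.5% of all tested genes. For the 875 strongly lower genes the shares were 90.5%, 92.9% and 92.2%, against 50.4%, 60.2% and 56.5% of all tested genes. BEM2, for example, had 1253 and 1603 CPM in wild-type disomes and 92.9, 90.2 and 110 CPM in wild-type monosomes.

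The strongly higher genes held 13.0% and 12.9% of the disome counts of ncs2Δelp6Δ and between 5.08% and 5.18% of its monosome counts, values that follow from how they were chosen. In wild type the same genes held 8.77% and 8.79% of disome counts and between 4.08% and 4.36% of monosome counts. In hel2Δ they held 8.12% and 8.16% of disome and 4.86% and 4.83% of monosome counts. In the triple deletion they held 10.1% and 9.93% of disome and 5.63% and 5.51% of monosome counts. In each strain the share was larger among disomes, and it was highest in the libraries that chose the genes.

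The transcripts with the most disome footprints were those with many monosome footprints too, and their differences were small. HSC82, a cytosolic Hsp90 chaperone, led with 21166 and 21658 CPM in disomes against 12112, 12275 and 13081 CPM in monosomes (log2 difference 0.78 ± 0.05, adjusted p = 8.90e-16, edgeR). The glycolytic genes PDC1 (pyruvate decarboxylase), ENO2 (enolase) and TDH3 (glyceraldehyde-3-phosphate dehydrogenase) followed and were lower among disomes. Their log2 differences were -0.64 ± 0.05, -0.44 ± 0.05 and -0.48 ± 0.05. HSC82, PDC1, ENO2 and TDH3 have close paralogs and are uncertain for the reason given for MAL11. YEF3, the elongation factor eEF3, had 12717 and 12703 CPM in disomes and 11340, 11722 and 12668 CPM in monosomes, a log2 difference of 0.09 ± 0.05 that did not pass (adjusted p = 0.12, edgeR). With TMM, with DESeq2, with a block for the replicate number, or without monosome replicate 3, YEF3 was called higher, at between 0.14 and 0.27.

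The genes needed to reach 50% of all counts numbered 173 and 174 in the disome libraries of ncs2Δelp6Δ and between 170 and 181 in its monosome libraries. The evenness of the 2 kinds of library thus differed by less than the spread between the monosome libraries. In wild type the numbers were 119 and 109 genes for disomes and between 126 and 135 for monosomes.

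Groups of genes with a shared task were compared with the median of all tested genes. Among nuclear genes of the respiratory chain and ATP synthase, 22 of 36 were called higher and 6 lower, against 21.4% and 34.4% of all genes. Their median lay 0.65 above that of all genes on the log2 scale, and 0.54 to 0.70 above it in the alternatives tried. In wild type the group's median lay 0.56 above that of all genes. QCR10, a small subunit of the cytochrome bc1 complex, had 280 and 264 CPM in disomes and 50.3, 57.8 and 52.5 CPM in monosomes (log2 difference 2.34 ± 0.11). COX12, a subunit of cytochrome c oxidase, had 445 and 428 CPM against 118, 117 and 120 CPM (1.88 ± 0.09). At the low end QCR6 and QCR9, also of the bc1 complex, reached -1.18 ± 0.22 and -1.18 ± 0.18, so subunits of a single complex lay at both ends.

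Of 14 tested reading frames of the mitochondrial genome, 6 were called higher and none was called lower by edgeR, where 0 were lower at an unadjusted p under 0.05. These counts were not stable. The number called higher was 4 without disome replicate 1, 3 without disome replicate 2, 2 with thinned monosome libraries and 1 with the stricter filter, and 4 frames were called lower with DESeq2, with thinned monosome libraries, with a replicate block and without monosome replicate 2. The 6 were AI1, AI2, AI4, AI5_BETA, BI2 and Q0255. Only AI1 and AI2 had monosome levels near or above 1 CPM in all 3 libraries, at 0.92, 1.24 and 1.02 CPM for AI2 against 21.3 and 16.1 CPM in disomes. The other 4 passed the filter on low counts through their disome libraries, such as AI5_BETA with 8 and 14 disome counts and 1, 0 and 1 monosome counts, so their number is not evidence about the group. OLI1, a subunit of ATP synthase, had 3.55 and 0.89 CPM in disomes against 19.0, 31.9 and 12.5 CPM in monosomes, and ATP6, another, had 3.55 and 3.57 CPM against 16.6, 31.3 and 9.50 CPM. Both were called lower in the 4 settings named for the lower calls, at between -2.97 and -3.68 for OLI1 and between -1.91 and -2.80 for ATP6. The group's median relative to all genes ran from -1.80 to 4.65 over the alternatives, so no direction is given for it.

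**Figure D3:**
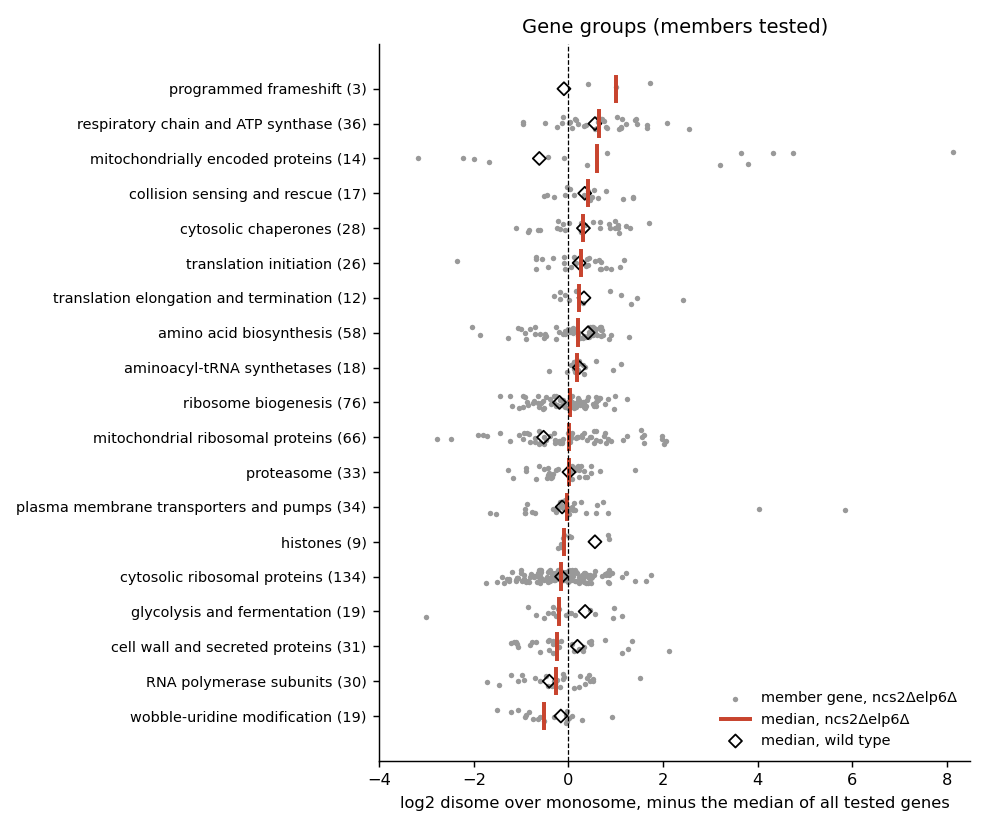
Each grey point is a gene's log2 difference of disome over monosome in ncs2Δelp6Δ minus the median of all tested genes, for 19 groups with the number of tested members in parentheses. Red bars mark the group's median in ncs2Δelp6Δ and open diamonds that in wild type; the respiratory chain lies at 0.65 and wobble-uridine modification at -0.51.

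Genes that act on colliding ribosomes were themselves mostly near or above the median. Of 17, 6 were called higher and 4 lower, against 21.4% and 34.4% of all genes (9 and 3 with DESeq2). Their median lay 0.41 above that of all genes (0.27 to 0.45 in the alternatives). By log2 ratios of libraries with the same number it lay 0.26 and 0.28 above, and in wild type the fitted median lay 0.345 above. The highest were SMY2 (252 and 252 CPM in disomes against 118, 104 and 116 CPM, log2 difference 1.16 ± 0.10), a GYF-domain protein, and CUE3 (1.15 ± 0.16), a ubiquitin-binding component of the complex that splits collided ribosomes. MBF1, which guards the reading frame at collisions, was called higher at 0.94. VMS1, the peptidyl-tRNA hydrolase of quality control (-0.73 ± 0.19), and SYH1, the paralog of SMY2 (-0.67 ± 0.13), were the lowest, and VMS1 did not pass without disome replicate 2 (adjusted p = 0.083, edgeR). HEL2 itself had 78.0 and 92.8 CPM in disomes and 80.0, 74.2 and 70.6 CPM in monosomes, overlapping ranges with a log2 difference of 0.20 ± 0.14 (adjusted p = 0.21, edgeR) that passed with TMM and with DESeq2.

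The genes of wobble-uridine modification, without the deleted ones, mostly lay below the median of all genes. Of 19, 11 were called lower and 1 higher, against 34.4% and 21.4% of all genes. The median lay 0.51 below that of all genes (0.48 to 0.67 below in the alternatives), and by log2 ratios of libraries with the same number it lay 0.54 and 0.36 below. In wild type the fitted median lay 0.16 below, and by such ratios 0.09 and 0.16 below. Tested against wild type, 5 were called lower and 1 higher, against 7.74% and 11.1% of all genes. Over the alternatives these numbers ran from 1 to 5 and from 0 to 1. KTI11, which supplies electrons to Elongator, had 26.01 and 14.3 CPM in disomes against 64.1, 62.4 and 66.1 CPM in monosomes (log2 difference -1.73 ± 0.21). KTI12, an Elongator regulator, had 10.6 and 11.6 CPM against 31.6, 28.2 and 29.4 CPM (-1.41 ± 0.26). The member called higher was TUM1, a sulfur carrier of the thiolation pathway, with 218 and 194 CPM against 129, 123 and 121 CPM (0.71 ± 0.10).

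Among the genes of the translation machinery, directions were mixed within groups. Of 134 cytosolic ribosomal protein genes, 25 were called higher and 83 lower, against 21.4% and 34.4% of all genes (33 and 67 with DESeq2). Their median lay 0.16 below that of all genes. The highest were the copies RPL42A and RPL42B (2464 and 2381 CPM in disomes against 914, 795 and 798 CPM in monosomes for RPL42A), and the lowest were the stalk proteins RPP2A (552 and 533 CPM against 2038, 2070 and 2182 CPM, log2 difference -1.95 ± 0.07) and RPP1B (-1.72 ± 0.07). Because many of these genes have near-identical copies, those with a copy letter in their name were set apart: the median log2 difference was -0.36 over 115 such genes and -0.38 over the 19 others.

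Of 26 initiation factor genes, 11 were called higher and 10 lower, against 21.4% and 34.4% of all genes (13 and 7 with DESeq2). They ran from TIF11 at -2.57 up to PAB1, the poly(A)-binding protein. PAB1 had 5736 and 5666 CPM in disomes and 2887, 2736 and 3151 CPM in monosomes, a log2 difference of 0.96 ± 0.06. Of 12 elongation and termination genes, 5 were called higher and 3 lower (6 and 1 with DESeq2). The highest were HEF3, TEF2 and TEF1, all with a near-identical or close copy, and TEF2 was not called without disome replicate 1, disome replicate 2 or monosome replicate 1, with adjusted p of 0.058, 0.060 and 0.050 (edgeR). HEF3, a paralog of YEF3, had a log2 difference of 2.21 ± 0.48, which was 1.44 and not called without disome replicate 2 (adjusted p = 0.17, edgeR). SUP35, the release factor eRF3, was called higher at 0.91, and its partner SUP45 lower at -0.39. Of 18 aminoacyl-tRNA synthetases, 4 were called higher, a share near that of all genes (21.4%), and 2 lower, led by SES1, the seryl-tRNA synthetase, at 0.91 ± 0.06.

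The 3 genes whose translation needs a programmed frameshift were all called higher, against 21.4% of all genes. OAZ1, the ornithine decarboxylase antizyme, had 26.01 and 34.8 CPM in disomes against 11.89, 11.98 and 8.12 CPM in monosomes (log2 difference 1.51 ± 0.26, adjusted p = 7.03e-06, edgeR). EST3, a telomerase subunit, was at 0.79 ± 0.32 and ABP140, an actin-binding protein and tRNA methyltransferase, at 0.20 ± 0.09. The calls of EST3 and ABP140 did not hold with the disome libraries summed (adjusted p = 0.054 and 0.14, edgeR) or without either disome library, so the number called fell to 1 in some alternatives. In wild type the median of the 3 was at -0.09 relative to that of all genes. By log2 ratios of wild-type libraries with the same number it was at -0.33 and 0.73, which differ in sign. Tested against wild type, 1 of the 3 was called higher and 1 lower.

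Chaperones of the cytosol lay on both sides. Of 28, 13 were called higher and 11 lower, against 21.4% and 34.4% of all genes (17 and 7 with DESeq2). Their median lay 0.31 above that of all genes. HSP42, a small heat shock protein, had a log2 difference of 1.49 ± 0.16. Its levels were 155 and 167 CPM in disomes against 45.2, 60.1 and 68.1 CPM in monosomes. HSP82, the inducible Hsp90, was at 1.09 ± 0.06. As a close paralog of HSC82, HSP82 is uncertain for the reason given for MAL11. Of the 8 subunits of the chaperonin, 6 were called lower, with CCT4 the lowest at -1.07 ± 0.09, while TCP1 was called higher at 0.45 and CCT5 was not called. SSA3, an Hsp70, was the lowest of all at -1.31 ± 0.24.

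Genes of glycolysis and fermentation were mostly lower. Of 19, 13 were called lower and 5 higher, against 34.4% and 21.4% of all genes (10 and 5 with DESeq2). Their median lay 0.19 below that of all genes. TPI1, triose phosphate isomerase, had 2416 and 2187 CPM in disomes against 4744, 4854 and 4725 CPM in monosomes (log2 difference -1.05 ± 0.06). The members called higher were the less abundant isoenzymes TDH1 (0.92 ± 0.13), GLK1 (0.75 ± 0.10), HXK1 and ENO1, and the phosphofructokinase subunit PFK2. TDH1, HXK1 and ENO1 have close paralogs and are uncertain for the reason given for MAL11. Cell wall and secreted proteins also lay low, with 17 of 31 called lower and 5 higher (15 and 7 with DESeq2). Their median lay 0.25 below that of all genes. The lowest was CWP2, an abundant wall mannoprotein, with 777 and 758 CPM against 2184, 1804 and 2191 CPM (-1.42 ± 0.08). RNA polymerase subunits were low too, with 20 of 30 called lower and 2 higher (13 and 5 with DESeq2). RPB11 was at -1.93 ± 0.20, and the higher ones were RPB9 at 1.31 ± 0.11 and RPO21 at 0.19.

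The other groups stood nearer to the median of all genes, of which 21.4% were called higher and 34.4% lower. Enzymes of amino acid synthesis lay 0.19 above it, with 20 of 58 called higher and 21 lower, from LEU1 at 1.06 ± 0.06 to HIS2 at -2.25 ± 0.30. The medians of mitochondrial ribosomal proteins (16 of 66 higher, 26 lower) and ribosome biogenesis factors (14 of 76 higher, 32 lower) lay within 0.09 of it. So did those of proteasome subunits (4 of 33 higher, 17 lower) and plasma membrane transporters (5 of 34 higher, 13 lower). The median of histones (2 of 9 higher, 6 lower) did as well. All of the medians within 0.09 changed sign in at least 1 alternative. That of amino acid synthesis did not, at 0.093 to 0.21 above. With DESeq2 the calls higher and lower in the groups within 0.09 were 20 and 19, 21 and 25, 11 and 16, 6 and 8, and 2 and 2, in the order named. Single members still stood far out, such as the sulfate transporter SUL1, with 16.6 and 17.8 CPM in disomes against 0.28, 0.34 and 0.44 CPM in monosomes (5.63 ± 0.49), which passed the filter on low counts through its disome libraries. GCN4, the activator of amino acid synthesis genes, had 101 and 117 CPM in disomes against 136, 137 and 141 CPM (-0.33 ± 0.12), a call that did not hold with TMM, with DESeq2 or without disome replicate 1.

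Longer genes carried relatively more disomes, by a small margin. Coding lengths here are spans from RefSeq that include introns, available for 5301 of the tested genes. Over these the Spearman correlation of length with the log2 difference was 0.11 across genes, which are not independent replicates. With genes in 4 classes of about equal size by length, the median log2 difference was -0.38 in the shortest (78 to 792 bases). It was -0.23 and -0.19 in the classes between and -0.09 in the longest (1935 to 14733 bases). The longest class lay 0.29 above the shortest by the fitted values, and 0.23 and 0.27 above it by log2 ratios of libraries with the same number (after adding 1 CPM). The share of strongly lower genes was 22.1% in the shortest and 11.3% in the longest class, while that of strongly higher genes was 7.37% and 6.58%.

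Genes of like length differed far more than this: the interquartile range was -1.03 to 0.29 in the shortest and -0.61 to 0.40 in the longest class. Wild type had the same order of classes (-0.40, -0.24, -0.23 and -0.17). The density of monosome footprints, as CPM per kilobase of coding length, had a Spearman correlation of 0.0082 with the log2 difference across genes, and the median was -0.24 in the least dense and -0.175 in the densest of 4 classes. Within the 4 length classes, from short to long, the correlation with density was -0.03, 0.031, 0.092 and 0.099. Monosome counts enter both of these values, so they share an error.

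**Figure D4:**
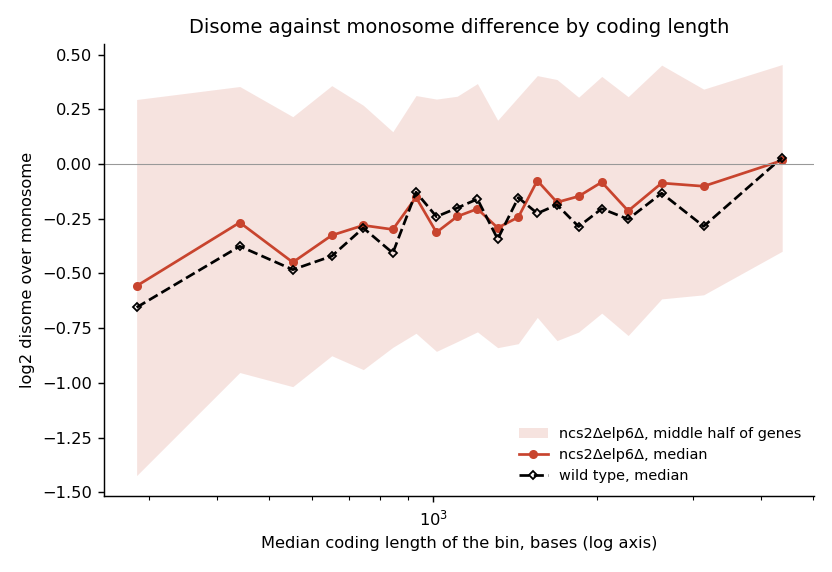
Median log2 difference of disome over monosome in 20 equal-sized bins of genes by coding length (x axis, logarithmic, in bases), for ncs2Δelp6Δ (red circles, with the interquartile range shaded) and wild type (open diamonds). Both lines rise from the shortest to the longest genes while the shaded band stays far wider than the rise.

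To ask which of these differences belonged to the strain, they were tested against those of wild type with an interaction term (library type by genotype) over 5389 genes. Relative to wild type, 598 genes were higher among disomes in ncs2Δelp6Δ (11.1%) and 417 were lower (7.74%). Without disome replicate 1 of ncs2Δelp6Δ these were 394 and 239, and without disome replicate 2 they were 310 and 199. This test compares disome footprints relative to the same gene's monosome footprints. For the CPM levels of these bulk libraries, more ribosomes per transcript, more transcripts and more cells with the transcript cannot be told apart.

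Many large differences occurred in both strains. Of the 364 strongly higher genes of ncs2Δelp6Δ, 191 were also strongly higher in wild type, which is 52.5% of them and 47.2% of the 405 genes (7.71% of those tested) of wild type. Of the 875 strongly lower genes, 533 were strongly lower in wild type too, 60.9% of them and 54.8% of the 973 (18.5%) of wild type. Only 4 strongly higher genes were strongly lower in wild type. Across 5220 genes tested in both strains, which share no library, the Spearman correlation of the log2 differences was 0.68. Of the 12 highest genes, 3 differed from wild type by the interaction test: YER079W and YKR011C had a larger difference in ncs2Δelp6Δ, and BEM2 a smaller one (-0.63 ± 0.15). Without wild-type disome replicate 2 or wild-type monosome replicate 1 this number was 5. Of the 12 lowest, none did by edgeR, where 2 (PDC5 and RAM2) had an unadjusted p under 0.05, while 1 was called with DESeq2 or without wild-type disome replicate 1.

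YER079W was the clearest of the genes with more disomes in ncs2Δelp6Δ. It had 19.98 and 19.49 CPM in wild-type disomes and 13.3, 17.3 and 17.5 CPM in wild-type monosomes, against 274 and 280 CPM in disomes and 21.4, 20.6 and 22.0 CPM in monosomes of ncs2Δelp6Δ. The difference between the strains was 3.40 ± 0.22 on the log2 scale (adjusted p = 1.11e-08, edgeR). In hel2Δ its disome levels were 26.6 and 26.6 CPM and in the triple deletion 108 and 133 CPM, so it was high in both strains without the modification and low in both with it. YBL029C-A, also uncharacterised, followed with 66.2 and 53.5 CPM in disomes against 4.70 and 10.04 CPM in wild type (3.15 ± 0.37), at monosome levels of 6.99, 7.14 and 7.69 CPM and, in wild type, 7.02, 7.69 and 9.26 CPM. For both genes the monosome levels of the strains differed far less than the disome levels.

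FLO8, an activator of flocculation genes that carries a premature stop codon in laboratory strains of this background, had 40.2 and 42.8 CPM in disomes against 0.59 and 5.31 CPM in wild type. Its monosome levels were 13.3, 11.3 and 12.6 CPM and, in wild type, 7.58, 6.67 and 7.51 CPM, and the difference was 3.04 ± 0.48 (adjusted p = 1.85e-04, edgeR). MRPS28, of the small mitochondrial ribosomal subunit, had 128 and 131 CPM in disomes against 13.5 and 17.1 CPM in wild type (2.76 ± 0.25). The small uncharacterised frames YLR363W-A (2.70 ± 0.48) and YIL002W-A (2.63 ± 0.46) had few disomes in both strains, with 15.4 and 23.2 CPM and 16.6 and 24.97 CPM in ncs2Δelp6Δ against at most 4.72 CPM in wild type. All 6 genes had disome levels in wild type below those in ncs2Δelp6Δ.

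Of the 6 genes with the largest differences in the other direction, YAT1, CWP1, SSA3 and CTT1 had higher monosome levels in ncs2Δelp6Δ than in wild type. YAT1, a carnitine acetyltransferase, had 49.7 and 40.1 CPM in disomes and 26.4 and 42.5 CPM in wild-type disomes, which overlapped, while its monosome levels were 10.1, 10.2 and 10.7 CPM against 1.28, 1.03 and 1.68 CPM (difference -2.57 ± 0.35, adjusted p = 4.06e-05, edgeR). CWP1, a cell wall mannoprotein, had 407 and 404 CPM against 378 and 462 CPM in disomes, and 421, 467 and 448 CPM against 132, 103 and 183 CPM in monosomes (-1.73 ± 0.28). SSA3 had 15.4 and 15.2 CPM against 1.76 and 4.13 CPM in disomes, and 41.3, 38.0 and 33.9 CPM against 2.23, 1.03 and 1.24 CPM in monosomes (-2.27 ± 0.69). CTT1, the cytosolic catalase, was at -1.97 ± 0.48. The calls of SSA3 and CTT1 did not hold without wild-type disome replicate 2 (adjusted p = 0.33 and 0.15, edgeR), and that of SSA3 also not without either disome library of ncs2Δelp6Δ. YER034W (-1.84 ± 0.29) and YER152C (-1.75 ± 0.38) instead had lower disome levels in ncs2Δelp6Δ, and YER152C did not pass without its disome replicate 2 (adjusted p = 0.083, edgeR).

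**Figure D5:**
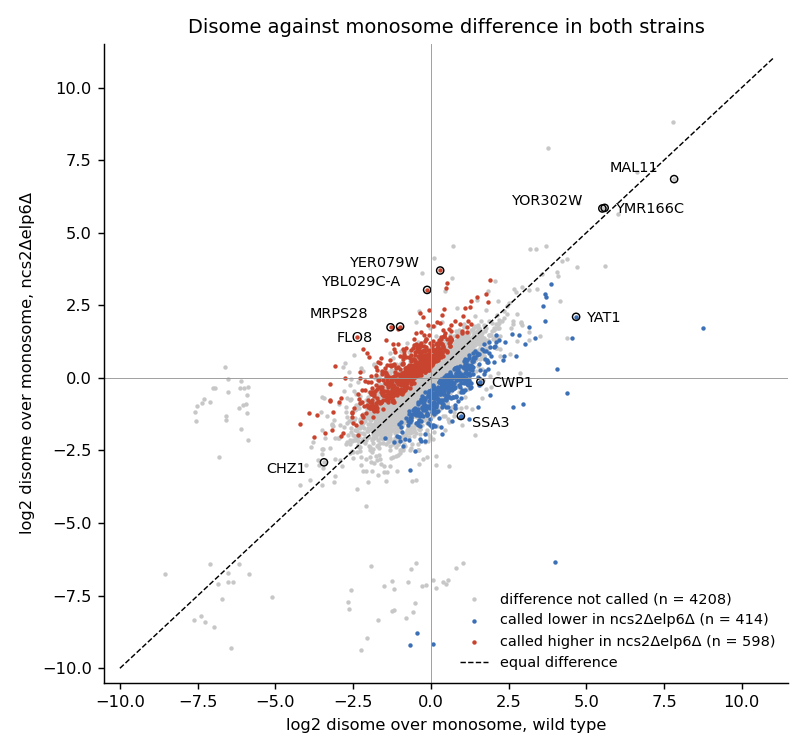
Log2 difference of disome over monosome in wild type (x axis) and in ncs2Δelp6Δ (y axis) for 5220 genes, with genes whose difference between strains was called in red (higher in ncs2Δelp6Δ) or blue (lower). Most points follow the dashed line of equality, YER079W and YBL029C-A lie above it and YAT1 below it, and the far points at large negative values are genes with 0 disome counts in a strain.

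Several groups held more genes called against wild type than the background of all genes, most of them in 1 direction. Of 66 mitochondrial ribosomal protein genes, 21 were called higher than in wild type and 1 lower, against 11.1% and 7.74% of all genes. Over the alternatives the number called higher ran from 11 to 21 and that called lower from 0 to 2. Of 76 ribosome biogenesis genes, 21 were higher and 2 lower (12 to 32 and 0 to 5 in the alternatives). Of 19 glycolysis and fermentation genes, 13 were lower (9 to 14 in the alternatives) and none was called higher by edgeR, by DESeq2 or at an unadjusted p under 0.05. Of 31 cell wall and secreted protein genes, 14 were lower (7 to 17 in the alternatives) and none was called higher by edgeR or DESeq2, with 2 (CRH1 and PLB2) higher at an unadjusted p under 0.05. Of 58 genes of amino acid synthesis, 19 were lower and 5 higher (13 to 25 and 2 to 6 in the alternatives). Cytosolic ribosomal protein genes were above the background in both directions, with 33 of 134 higher and 21 lower (16 to 38 and 10 to 26 in the alternatives). CWP2 differed by -1.40 ± 0.32 and TPI1 by -0.53 ± 0.10. The respiratory chain, with 8 higher and 7 lower, and the collision genes, with 3 higher and 3 lower, had members on both sides. Whether these numbers exceed chance was not tested.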

How the data were processed

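Monosome and disome footprints of yeast were counted per open reading frame. The authors deposited raw counts, 1 table for monosomes and 1 for disomes. According to the methods and the submitters' processing notes, reads were checked with FastQC 0.11.7, freed of noncoding RNA with STAR 2.5.3a and mapped to reading frames with Bowtie 1.2.3, keeping unique sense matches, with sacCer3 named as the build. Removal of duplicate reads is not given in the sources used here, so p-values treat reads as independent. Unique mapping of reads of unequal length affects paralogs. The deposited counts were scaled to library totals and tested with edgeR 4.0.16 (quasi-likelihood F test, filterByExpr, robust) in R 4.3.3, with limma 3.58.1 loaded, and adjusted by the Benjamini-Hochberg method over all genes tested. Differences from wild type were tested as an interaction in a fit of both strains. Each SE is the size of the log2 difference divided by the square root of its F statistic, and not a value that edgeR reports. The code was tested on simulated data. Lengths and coordinates came from the RefSeq gene table of R64, which matched 5531 of the 5693 genes, with spans that include introns. Named were the 12 highest and 12 lowest called genes with libraries that did not overlap and at least 20 CPM, the 5 genes with most disomes, the 2 highest and 2 lowest of each group, the 6 genes that differed most from wild type in each direction, and NCS2, ELP6, HEL2 and GCN4; further group members named were chosen after their values were seen. The groups and members were chosen with earlier results of these data known. Alternatives were TMM, DESeq2 1.42.0, no or a stricter filter (20 CPM), totals over shared genes, thinned monosome libraries, a block for the replicate number, summed disome libraries and each library left out. Amino acid and codon composition was not analysed here.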

Additional observations from a re-analysis of the deposited data

Results flagged for a closer look

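The first kind of result listed here is a difference between ncs2Δelp6Δ and wild type in the log2 difference of disome over monosome, by edgeR's interaction test, among the genes named for their size or level. Higher in ncs2Δelp6Δ were YER079W (3.40), YBL029C-A (3.15), FLO8 (3.04), MRPS28 (2.76), YLR363W-A (2.70), YIL002W-A (2.63) and YKR011C (1.48). Lower were YAT1 (-2.57), SSA3 (-2.27), CTT1 (-1.97), YER034W (-1.84), YER152C (-1.75), CWP1 (-1.73), TDH3 (-0.69), PDC1 (-0.64), BEM2 (-0.63) and ENO2 (-0.39). BEM2 did not pass without disome replicate 1 of ncs2Δelp6Δ (adjusted p = 0.055, edgeR), and ENO2 did not pass without either of its disome libraries or without wild-type disome replicate 2 (adjusted p from 0.060 to 0.085, edgeR).

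The second is a signal outside the comparison. YNL226W is in the disome table but has no row among the monosome counts, so it was not tested. It had 36 and 28 disome counts in ncs2Δelp6Δ, 64 in all, against 25 and 40 in wild type, 16 and 38 in hel2Δ and 13 and 17 in the triple deletion.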

How the results depend on the processing

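The number of strongly lower genes (875) moved to 574 with DESeq2 and to 477 with the stricter filter, which tested 3551 genes instead of 5326. CWP1, not called within ncs2Δelp6Δ, changed from -0.14 to 0.00389 with TMM and 0.0377 with DESeq2. Leaving out each library in turn gave 865 to 1164 genes higher, 1342 to 1964 lower, 362 to 366 strongly higher and 781 to 912 strongly lower. Against wild type it gave 310 to 697 higher and 199 to 466 lower, with the lowest numbers without disome replicate 2 of ncs2Δelp6Δ. The longest minus the shortest length class was 0.24 to 0.29, and 11 to 13 of 19 groups had a median above that of all genes (12 in the main setting, 8 with thinned monosome libraries and 9 with the stricter filter). The deviations of libraries with the same number had a correlation of 0.00124 for both numbers, which 2 disome libraries make equal. Since these libraries differ by little more than counting error, this check says little, and neither it nor the labels show that the numbers pair the libraries. With a replicate block, 1133 genes were higher and 1921 lower, and against wild type 401 and 333. Over the named genes and alternatives, the side of the threshold within ncs2Δelp6Δ was kept in 1372 cases, a call was lost in 31 and gained in 20, and the sign of an uncalled value (CWP1) changed in 2. Totals over shared genes, thinned monosome libraries (which tested fewer genes) and no filter kept the numbers of genes called over all genes within 1.5 times, but thinning changed single groups by more, such as wobble-uridine genes lower than wild type (5 to 1). The cause of the changes was not tested. Of the 12 lowest genes, all but TIF11 and YLR035C-A had at most 25 counts in each disome library.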
